A study of Homo sapiens with 42 samples.

Results

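H3K27ac and H2AK119ub were set against each other at gene promoters of NCI-H1299 cells that had not been induced. NCI-H1299 is a non-small cell lung cancer line, given as lung adenocarcinoma in the labels, and the cells used here carried stable, inducible FLAG-tagged DPPA2 and V5-tagged DPPA4 behind a tet-response element. The control cells compared here received water for 7 days and no doxycycline, so that every control library came from cells that held the uninduced transgenes. Each mark had 2 ChIP-seq libraries, made from single-crosslinked chromatin of a sorted bulk population with an abcam antibody against H3K27ac and a CST antibody against H2AK119ub. Promoters reached 1500 bp to each side of the start of the canonical transcript (TSS), and 20033 of them came from the protein-coding genes of GENCODE 44 (hg38). A mark was called at a promoter when an EPIC2 island, a broad stretch enriched over input, touched it in both libraries. Both marks were called at 853 promoters (4.26%), H3K27ac alone at 6811 (34%), H2AK119ub alone at 910 (4.54%) and neither at 11459 (57.2%). These 4 libraries were part of a series of 42 samples. The same cells also gave 2 libraries each of H3K4me1, H3K36me3 and H3K9me3 in the control condition, and H3K27ac and H2AK119ub libraries after 7 days of 2 µg/mL doxycycline (DOX). NCI-H661, another non-small cell lung cancer line, which expresses DPPA2 and DPPA4 and was left untreated, gave libraries of both marks and of DPPA2, DPPA4, SUZ12 and KDM2A.

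H3K27ac is the acetylation of lysine 27 of histone H3, written mainly by the acetyltransferases p300 and CBP, and it is known as a mark of active promoters and enhancers. H2AK119ub is a single ubiquitin near the C-terminal end of histone H2A, written by RING1 or RNF2 in Polycomb repressive complex 1 (PRC1) and removed by the deubiquitinase BAP1 and by USP16. It is best known from CpG-rich promoters of silent developmental genes, where the PRC2 mark H3K27me3 often lies beside it, although variant PRC1 complexes also visit active CpG islands.

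The sequences below show what promoters of the 4 classes look like, with every CpG dinucleotide in capitals. Each runs from 250 bases before to 50 bases after a RefSeq start site (GRCh38.p14). OR2T1, BRD2 and MICA are the promoters with the highest read density in the classes both marks, H3K27ac alone and H2AK119ub alone, and OR10A2 is the first olfactory receptor gene by symbol with neither mark. NAMPT and RING1 (both marks) and EFNA3 (H2AK119ub alone) were added after their values were seen, since OR2T1 is unlike most of its class and MICA carried H3K27ac in 1 library.
OR2T1, an olfactory receptor gene with both marks, chr1:248402798-248403097, + strand, 3 CpG: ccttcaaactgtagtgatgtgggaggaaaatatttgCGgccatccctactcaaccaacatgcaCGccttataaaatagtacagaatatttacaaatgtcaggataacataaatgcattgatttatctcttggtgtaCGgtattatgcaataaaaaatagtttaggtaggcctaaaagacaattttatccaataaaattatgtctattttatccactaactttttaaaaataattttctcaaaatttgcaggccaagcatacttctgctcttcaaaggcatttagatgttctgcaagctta
NAMPT, the NAD salvage enzyme gene with both marks, chr7:106284934-106285233, − strand, 38 CpG: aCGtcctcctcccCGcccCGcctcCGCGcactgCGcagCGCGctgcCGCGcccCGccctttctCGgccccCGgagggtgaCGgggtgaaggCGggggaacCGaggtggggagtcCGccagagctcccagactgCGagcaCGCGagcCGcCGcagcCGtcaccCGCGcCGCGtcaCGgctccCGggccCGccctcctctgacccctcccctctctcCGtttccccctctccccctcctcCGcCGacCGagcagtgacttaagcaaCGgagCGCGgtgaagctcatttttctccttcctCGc
RING1, the PRC1 ubiquitin ligase gene with both marks, chr6:33208250-33208549, + strand, 41 CpG: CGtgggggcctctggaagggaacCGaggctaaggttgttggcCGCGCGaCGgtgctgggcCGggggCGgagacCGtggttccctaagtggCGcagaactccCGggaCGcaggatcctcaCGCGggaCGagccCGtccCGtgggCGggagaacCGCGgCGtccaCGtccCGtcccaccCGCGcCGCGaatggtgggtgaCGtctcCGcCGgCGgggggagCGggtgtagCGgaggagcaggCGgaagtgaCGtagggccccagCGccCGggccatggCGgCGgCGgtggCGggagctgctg
BRD2, a bromodomain protein gene with H3K27ac alone, chr6:32968344-32968643, + strand, 30 CpG: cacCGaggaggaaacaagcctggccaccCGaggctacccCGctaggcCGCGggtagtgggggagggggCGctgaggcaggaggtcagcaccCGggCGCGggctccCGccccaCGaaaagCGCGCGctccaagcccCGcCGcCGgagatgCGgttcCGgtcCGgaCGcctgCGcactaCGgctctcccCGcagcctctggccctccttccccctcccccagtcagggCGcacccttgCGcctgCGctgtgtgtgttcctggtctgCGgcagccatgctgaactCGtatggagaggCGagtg
MICA, a stress ligand of natural killer cells with H2AK119ub alone, chr6:31403345-31403644, + strand, 21 CpG: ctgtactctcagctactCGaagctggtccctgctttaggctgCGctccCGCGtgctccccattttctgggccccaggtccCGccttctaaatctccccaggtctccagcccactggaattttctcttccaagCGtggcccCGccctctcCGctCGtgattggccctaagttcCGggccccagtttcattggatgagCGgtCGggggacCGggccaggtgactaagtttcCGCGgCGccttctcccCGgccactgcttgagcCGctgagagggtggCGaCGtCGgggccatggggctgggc
EFNA3, the ephrin A3 gene with H2AK119ub alone, chr1:155078587-155078886, + strand, 28 CpG: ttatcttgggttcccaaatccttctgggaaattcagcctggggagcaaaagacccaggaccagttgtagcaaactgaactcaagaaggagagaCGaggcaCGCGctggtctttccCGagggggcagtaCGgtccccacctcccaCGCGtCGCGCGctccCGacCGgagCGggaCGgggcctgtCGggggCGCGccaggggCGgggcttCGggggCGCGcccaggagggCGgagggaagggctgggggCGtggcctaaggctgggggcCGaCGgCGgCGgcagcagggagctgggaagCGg
OR10A2, an olfactory receptor gene with neither mark, chr11:6862807-6863106, + strand, 1 CpG: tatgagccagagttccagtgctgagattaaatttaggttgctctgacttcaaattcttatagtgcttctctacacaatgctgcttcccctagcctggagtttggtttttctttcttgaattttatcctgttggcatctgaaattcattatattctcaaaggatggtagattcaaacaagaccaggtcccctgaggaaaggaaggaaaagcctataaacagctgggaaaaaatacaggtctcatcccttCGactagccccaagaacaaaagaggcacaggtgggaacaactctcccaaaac
In the 14992 of 20007 gene symbols with a RefSeq promoter within 1500 bp of the GENCODE start, the same 300 base window held a median of 33 CpG in the class with both marks, 28 with H3K27ac alone, 30 with H2AK119ub alone and 16 with neither. The 3 CpG of OR2T1 were therefore few for its class, and 91.3% of all these promoters held as many or more.

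A larger share of H3K27ac islands than of H2AK119ub islands lay at promoters, and a larger share of the H3K27ac promoters was called in both replicates. The median island was 600 bp wide in both H3K27ac libraries and 600 and 700 bp wide in the H2AK119ub libraries. The libraries kept 30614 and 28105 islands of H3K27ac, against 20170 and 32590 islands of H2AK119ub. Those islands held 0.775 and 0.760 M reads of H3K27ac, against 0.303 and 0.571 M reads of H2AK119ub, and covered 24.4 and 22.97 Mb, against 13.6 and 24.1 Mb. Reads in islands are not sequencing depth. Of the H3K27ac islands 34.1% and 39.8% touched a promoter, against 15.0% and 18.4% of the H2AK119ub islands. The means were 36.9% ± 4.02 for H3K27ac and 16.7% ± 2.40 for H2AK119ub (SD, n = 2 each), a difference of 20.2 percentage points, and the groups did not overlap. An exact two-sided permutation test over the 4 libraries gave p = 0.3333, the smallest that 2 against 2 allows. Islands outside protein-coding genes made up 19.6% and 18.3% of H3K27ac, against 41.1% and 36.2% of H2AK119ub. At promoters H3K27ac was called at 8578 and 9167 genes in the single libraries and at 7664 (38.3%) in both, so that 89.3% of replicate 1 and 83.6% of replicate 2 were shared. H2AK119ub was called at 2818 and 5257 genes and at 1763 (8.8%) in both, or 62.6% of replicate 1 and 33.5% of replicate 2. The study's methods call the replicates independent and made in complete batches, and since no source says that they were separate cultures, their spread may be technical. All 4 libraries were called against the same control input: the 829 islands that any pair of them gave with identical coordinates had identical input counts in all 829 cases. Agreement between replicates, and the overlap of the marks, thus rest on calls that share a control.

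A promoter called with 1 mark alone was often not free of the other. Among the 6811 promoters with H3K27ac alone, 2238 (32.9%) had an H2AK119ub island in 1 library and 4573 had none. Among the 910 with H2AK119ub alone, 281 (30.9%) had an H3K27ac island in 1 library and 629 had none. Of the 11459 promoters with neither, 2311 (20.2%) had an H2AK119ub island in 1 library and 2136 (18.6%) an H3K27ac island in 1 library. No island of either mark lay at 7690 of them in any of the 4 libraries. Counting H2AK119ub by replicate 2 only gave 2669 promoters with both marks in place of 853 and 2588 with H2AK119ub alone in place of 910, and by replicate 1 only 1275 and 1543. In replicates called at the same promoter, the islands also shared bases in 95.6% of 7664 cases for H3K27ac and 79.0% of 1763 for H2AK119ub. Islands just inside the fold limit had a log2 fold of 1.001 to 1.006, those just outside 0.9945 to 0.9999, and 2428 to 7173 islands per library fell below it.

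Where both marks were called, they were placed differently around the start site. H3K27ac covered most of these promoters 250 bp downstream of the TSS, 74.7% of them in replicate 1 and 80.7% in replicate 2. H2AK119ub was most frequent further into the gene, at 40.2% of them 850 bp downstream in replicate 1 and at 54.8% 550 bp downstream in replicate 2, and it dipped to 6.16% and 14.4% at the TSS itself. H3K27ac alone had its summit 250 bp downstream at 78.9% and 84.1%. At promoters with H2AK119ub alone, H2AK119ub peaked 950 and 750 bp downstream, at 36.04% and 47.8%, and the dip at the TSS was shallower, at 12.7% and 23.96%.

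**Figure D1:**
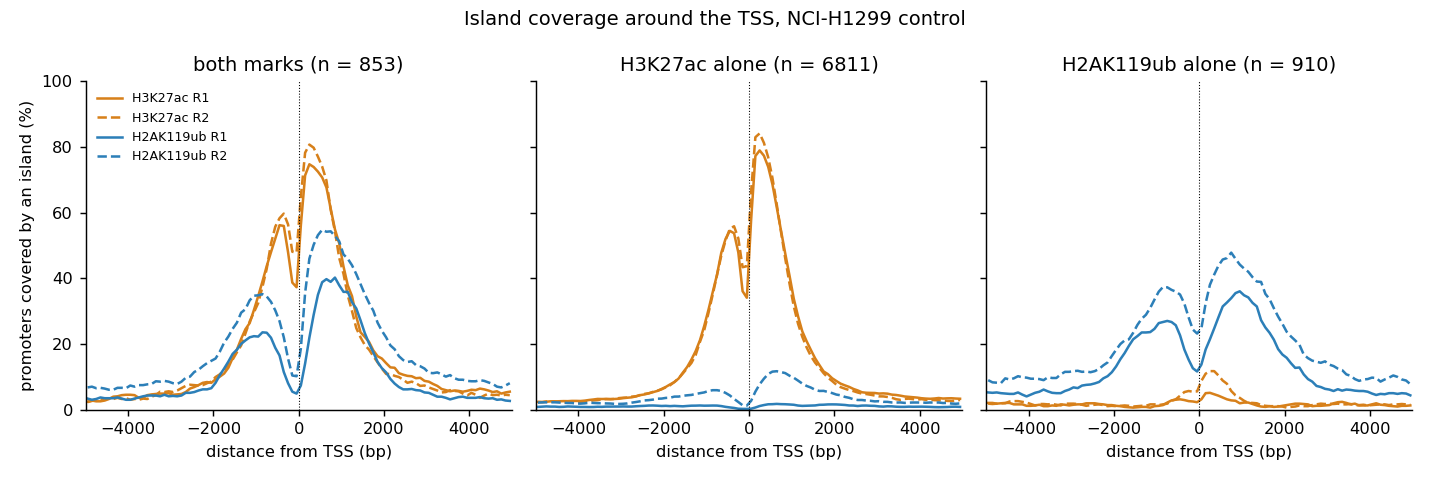
Share of promoters (%) covered by an island in each 100 bp step from 5 kb upstream to 5 kb downstream of the TSS, for the classes with both marks (853), H3K27ac alone (6811) and H2AK119ub alone (910). Solid lines are replicate 1 and dashed lines replicate 2. In the class with both marks the H3K27ac lines peak at 74.7% and 80.7% 250 bp downstream, and the H2AK119ub lines peak at 40.2% and 54.8% farther out and dip at the TSS.

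Few bases lay under both marks. Bases covered in both replicates came to 11.96 Mb for H3K27ac and 2.77 Mb for H2AK119ub, and 0.242 Mb were common to the marks, which is 2.02% of the H3K27ac bases and 8.72% of the H2AK119ub bases. Without replicate 2 of H3K27ac the share of H2AK119ub bases was 14.4%, and without replicate 2 of H2AK119ub it was 3.99%. Of the 853 promoters with both marks, 423 (49.6%, Wilson 95% interval 46.2 to 52.9) had bases under both marks in all 4 libraries. A further 255 had replicated bases of each mark but none in common. The median promoter with replicated bases of each mark had 1000 bp of H3K27ac, 500 bp of H2AK119ub and 200 bp shared. The longest shared stretches were 1400 bp, at HOXB4, PPP1R35 and MFSD3, and 1300 bp at GNB2, which encodes a G protein beta subunit. HOXB4, a homeobox gene of body patterning, had its TSS on chromosome 17 at 48578350 and islands with 595 and 405 reads of H3K27ac beside 82 and 210 reads of H2AK119ub. In a bulk population, fewer cells with a mark and less of it per cell cannot be told apart, and marks of different cells or alleles can fall on the same bases.

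The islands of a mark were about as strong where the other mark was present as where it was not. The median H3K27ac island stretch was 1500 bp in both replicates with both marks and 1300 bp with H3K27ac alone, and its read density was 33.8 and 34.2 reads per kb with both marks, against 35.6 and 34.3 reads per kb alone. For H2AK119ub the median width was 800 and 1200 bp in either class, and the density was 24.3 and 27.5 reads per kb with both marks, against 24 and 26.0 reads per kb alone. These levels come from the islands that defined the classes and are given as a description.

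H2AK119ub calls differed between chromosomes along with the input. On chromosome X 159 of 859 promoters (18.5%) had H3K27ac in both replicates, whereas 1 (0.116%) had H2AK119ub, with 6 and 21 in the single H2AK119ub libraries, and none had both marks. Chromosomes 13, 10 and 21 followed with H2AK119ub at 1.24%, 1.78% and 2.27% of promoters, whereas chromosomes 17 and 6 reached 14.7% each. The control input, measured as the authors' input reads in islands of H3K4me1 and H3K36me3, was 0.790 reads per kb on chromosome X and 0.793, 1.12 and 1.12 on chromosomes 13, 10 and 21, but 2.22 and 1.83 on chromosomes 17 and 6. Over the 11 autosomes with at least 1.71 input reads per kb, H3K27ac was called at 3866 of 9626 promoters (40.2%) and H2AK119ub at 1127 (11.7%). Over the 3 with at most 1.12, H3K27ac was called at 450 of 1273 (35.4%) and H2AK119ub at 22 (1.73%). Across autosomes the share ran between 30.9% and 44.2% for H3K27ac and between 1.24% and 14.7% for H2AK119ub. Input density follows the amount of DNA in a sample, and copy number was not measured here, so its part in the calls was not tested.

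**Figure D2:**
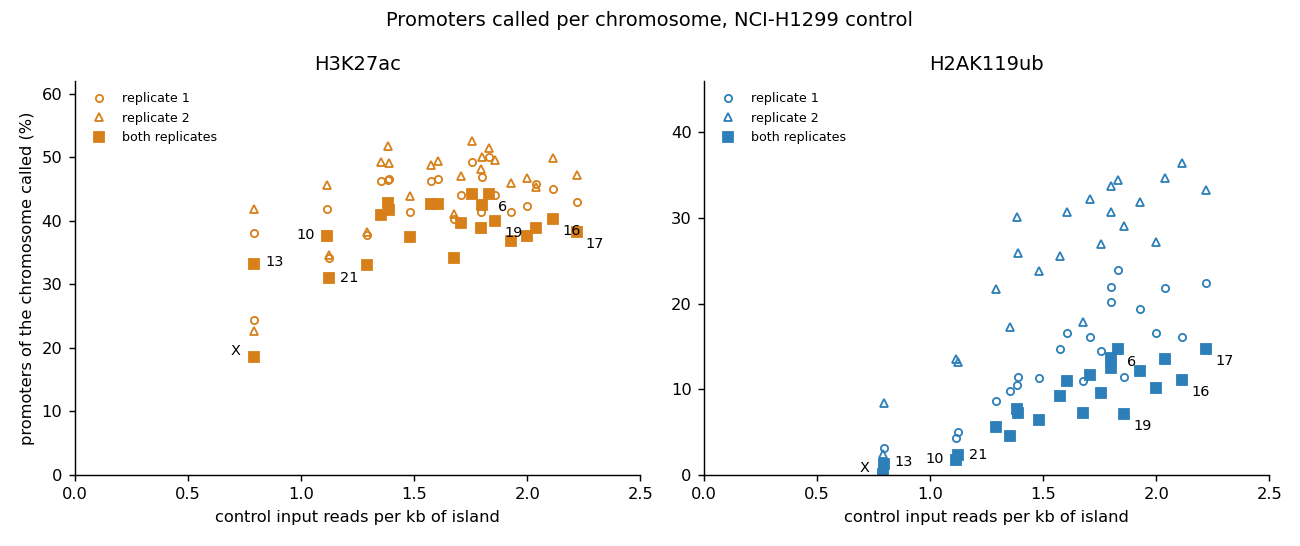
Promoters of each chromosome called (%) for H3K27ac (left) and H2AK119ub (right) against the control input density, in reads per kb over H3K4me1 and H3K36me3 islands. Each chromosome except Y has a square for calls in both replicates, a circle for replicate 1 and a triangle for replicate 2. H3K27ac on autosomes stays between 30.9% and 44.2%, while H2AK119ub lies between 0.116% on chromosome X and 14.7% on chromosomes 6 and 17.

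Promoters with H2AK119ub had H3K27ac more often than promoters without it, and the difference was small among promoters with a CpG island. H3K27ac was present at 48.4% (46.1 to 50.7) of the 1763 promoters with H2AK119ub, against 37.3% (36.6 to 38.0) of the 18270 without, an odds ratio of 1.58. The 4 pairings of single libraries gave 1.46 to 2.23. Among the 14599 promoters with a CpG island (any 500 bp in which GC reached 55% and CpG reached 0.65 of the number expected from C and G) the shares were 52.4% with H2AK119ub and 50.6% without, an odds ratio of 1.08. Among the other promoters they were 14.4% of 188 and 4.18% of 5246, an odds ratio of 3.85 that rests on 27 promoters. Combined within chromosomes (Mantel-Haenszel) the odds ratio was 1.47, and within chromosomes and CpG classes together it was 1.05. These ratios describe 4 libraries called against 1 input, and promoters are not replicates.

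The classes with a mark were rich in CpG and differed from each other in GC content. A CpG island lay in 96.8% of promoters with both marks, 96.8% with H3K27ac alone, 82.3% with H2AK119ub alone and 56.1% with neither, and in 72.9% of all promoters. The median GC content of the 3 kb window was 58.4% with both marks, 52.7% with H3K27ac alone, 60.6% with H2AK119ub alone and 51.8% with neither. Another protein-coding start on the opposite strand lay within 1500 bp at 12.8% of promoters with both marks and 20.9% with H3K27ac alone, but at 4.396% with H2AK119ub alone and 4.26% with neither. In the 300 base RefSeq windows, read on both strands, the letters GGGCGG (the core of a GC box) stood in 84.6% of promoters with both marks, 75.4% with H3K27ac alone, 77.9% with H2AK119ub alone and 50.8% with neither, and in 62.5% of all. TATAAA, the TATA box core, stood in 4.39%, 4.52% and 5.32% of the classes with both marks, H3K27ac alone and H2AK119ub alone, in 13.4% with neither and in 9.37% of all. CCAAT stood in 36.3%, 39.8%, 30.5% and 35.2% of the 4 classes in the same order and in 36.8% of all. These letter matches are descriptions and not binding sites.

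The remaining control marks separated the classes further. H3K4me1, a mark of enhancers and promoter flanks, was called in both replicates at 83.5% (80.8 to 85.8) of promoters with both marks, 64.3% (63.2 to 65.4) with H3K27ac alone, 45.5% (42.3 to 48.7) with H2AK119ub alone and 16.9% (16.2 to 17.6) with neither, against 37.1% of all promoters. The same order held in each replicate, with 86.8% and 92.7%, 70.7% and 83.0%, 54.95% and 61.1%, and 21.4% and 26.8%. With promoters narrowed to 500 bp on each side the shares were 39.8% with both marks, 18.7% with H3K27ac alone and 31.6% with H2AK119ub alone, so that the order of the classes with a single mark turned. H3K36me3, which is laid down along transcribed gene bodies, covered more than 20% of the gene in both replicates for 37.5% (34.3 to 40.8) of genes with both marks and 43.97% (42.8 to 45.2) with H3K27ac alone, but for 5.06% (3.81 to 6.68) with H2AK119ub alone and 6.55% (6.12 to 7.02) with neither, against 20.5% of all genes. The genes with both marks therefore stood near those with H3K27ac alone and not near those with H2AK119ub alone. In the promoter window H3K36me3 was called at 15.5%, 14.7%, 2.20% and 2.85% of the 4 classes in this order, against 7.37% of all. H3K9me3, a heterochromatin mark, was called in both replicates at 4 of 853 promoters with both marks, 12 of 6811, 2 of 910 and 20 of 11459, against 0.19% of all promoters, and the share with both marks was 0.469% and, without replicate 1 of H2AK119ub, 0.187%. Its libraries differed at promoters, with calls at 0.614% in replicate 1 and 2.43% in replicate 2.

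**Figure D3:**
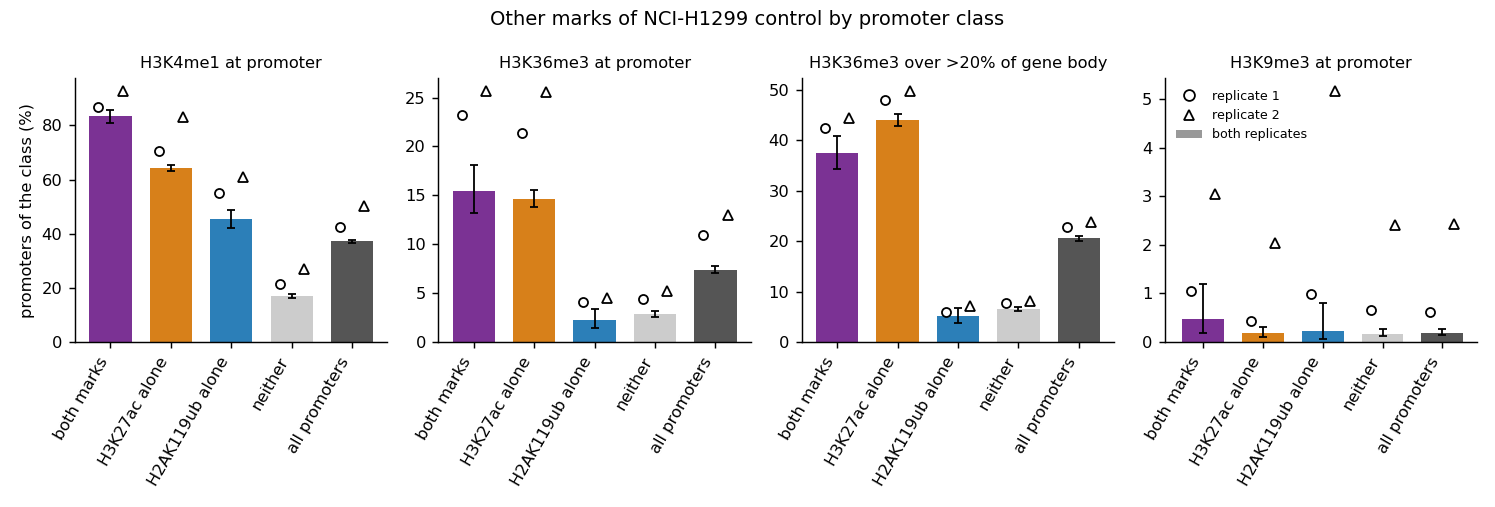
Share of promoters or genes (%) in each class, and in all 20033, with H3K4me1 at the promoter, H3K36me3 at the promoter, H3K36me3 over more than 20% of the gene body, and H3K9me3 at the promoter in the NCI-H1299 control libraries. Bars are calls in both replicates with 95% Wilson intervals, circles are replicate 1 and triangles replicate 2, and the 4 vertical scales differ. H3K4me1 falls in steps of 83.5%, 64.3%, 45.5% and 16.9% over the classes, while gene body H3K36me3 is high at 37.5% and 43.97% only in the classes that hold H3K27ac.

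Both marks were called in the DOX and NCI-H661 libraries, which had no part in the classes, more often at promoters that carried the mark in the control cells than over all promoters. The DOX islands held 2.78 and 0.979 M reads of H3K27ac, against 0.456 and 0.450 M reads of H2AK119ub, so the shares of the marks there were not compared with each other. In the DOX libraries H3K27ac was called in both replicates at 96.4% of promoters with both marks and 96.4% with H3K27ac alone, at 35.3% with H2AK119ub alone and 22.3% with neither, against 51.3% of all promoters. H2AK119ub was called there at 38.6% (35.4 to 41.9) of promoters with both marks, 9.72% with H3K27ac alone, 48.7% (45.5 to 51.9) with H2AK119ub alone and 7.79% with neither, against 11.6% of all. Both marks recurred together at 316 of the 853 promoters (37.05%), against 7.84% of all promoters, and 506 of them (59.3%) had H3K27ac alone there. Where replicate 1 of H2AK119ub was left out of the classes, both marks recurred at 22.5% of the enlarged class. In NCI-H661, a different line, both marks were called at 34.9% of the 853, against 12.7% of all promoters. The share was as high with H2AK119ub alone (36.15%), and it was 10.8% with H3K27ac alone and 10.4% with neither. NCI-H661 had H2AK119ub at 39.4% of promoters with both marks, 12.2% with H3K27ac alone, 68.2% with H2AK119ub alone and 26.8% with neither, against 24.3% of all.

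The proteins mapped in NCI-H661 fell on the classes unevenly. DPPA2 and DPPA4, which bind CpG-rich DNA in early embryos, had narrow peaks in all 4 of their libraries at 66.2% of promoters with both marks, 41.3% with H3K27ac alone, 60.6% with H2AK119ub alone and 23.5% with neither, against 33.1% of all promoters. SUZ12, a core PRC2 subunit with 1 library, had a peak at 11.1% (9.20 to 13.4) of promoters with both marks and 4.33% with H3K27ac alone, but at 39.2% (36.1 to 42.4) with H2AK119ub alone and 20.8% with neither, against 15.6% of all. KDM2A, a demethylase that binds unmethylated CpG and also had 1 library, had a peak at 21.7%, 15.4%, 16.9% and 6.29% of the classes in the same order, against 10.5% of all. These peaks come from another cell line and say nothing of binding in NCI-H1299.

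The genes that write, read and remove the marks were themselves classed. Of 25 genes of PRC1 subunits 6 had both marks, 6 had H3K27ac alone, none had H2AK119ub alone and 13 had neither, so that 24% carried both marks against 4.26% of all promoters. H3K27ac alone was found at 24% of them and neither mark at 52%, against 34% and 57.2% of all promoters. RING1, the ubiquitin ligase subunit, had islands with 90 and 63 reads of H3K27ac beside 11 and 81 reads of H2AK119ub (replicate 1 and replicate 2). PCGF3, which sets the identity of a variant PRC1 complex, had 88 and 74 reads of H3K27ac beside 24 and 56 reads of H2AK119ub. CBX7, a reader of H3K27me3, had 46 and 24 reads of H3K27ac beside 16 and 22 reads of H2AK119ub. PHC1, KDM2B, which recruits a variant complex to CpG islands, and FBRSL1 completed the group of both marks, and these 3 lie on chromosome 12. RNF2, the other ligase gene, had an island in 1 of the 4 libraries, with 24 reads of H3K27ac in replicate 2, and BMI1 had one with 18 reads of H3K27ac in replicate 1. Of 13 PRC2 genes 2 had both marks (JARID2 and PHF19, both accessory subunits), 9 had H3K27ac alone (69.2%) and 2 neither (15.4%). The core subunit genes EZH2, EED and SUZ12 had H3K27ac alone, with 208 and 244 reads at EZH2, and no H2AK119ub island in either library.

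Most genes of deubiquitinases or their complexes, and most acetyltransferase and bromodomain genes, had H3K27ac alone. Deacetylase genes were spread over all 4 classes. Over all promoters the shares were 4.26% with both marks, 34% with H3K27ac alone, 4.54% with H2AK119ub alone and 57.2% with neither. Of the 7 genes of H2A deubiquitinases or their complexes 5 had H3K27ac alone (ASXL1, ASXL2, MYSM1, BAP1 and USP16) and 2 neither. BAP1, the catalytic subunit of the H2A deubiquitinase complex, had islands with 45 and 58 reads of H3K27ac and none of H2AK119ub. Of 13 acetyltransferase and bromodomain genes 9 had H3K27ac alone, among them EP300 (20 and 55 reads) and CREBBP (18 and 30), which encode p300 and CBP. CREBBP also had an H2AK119ub island in replicate 2, with 15 reads. Of 17 deacetylase genes 3 had both marks (HDAC3, HDAC7 and SIRT2), 8 H3K27ac alone, 2 H2AK119ub alone (HDAC10 and SIRT7) and 4 neither. With 7 to 25 genes in each list, 1 gene moves a share by 4 percentage points or more.

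**Figure D4:**
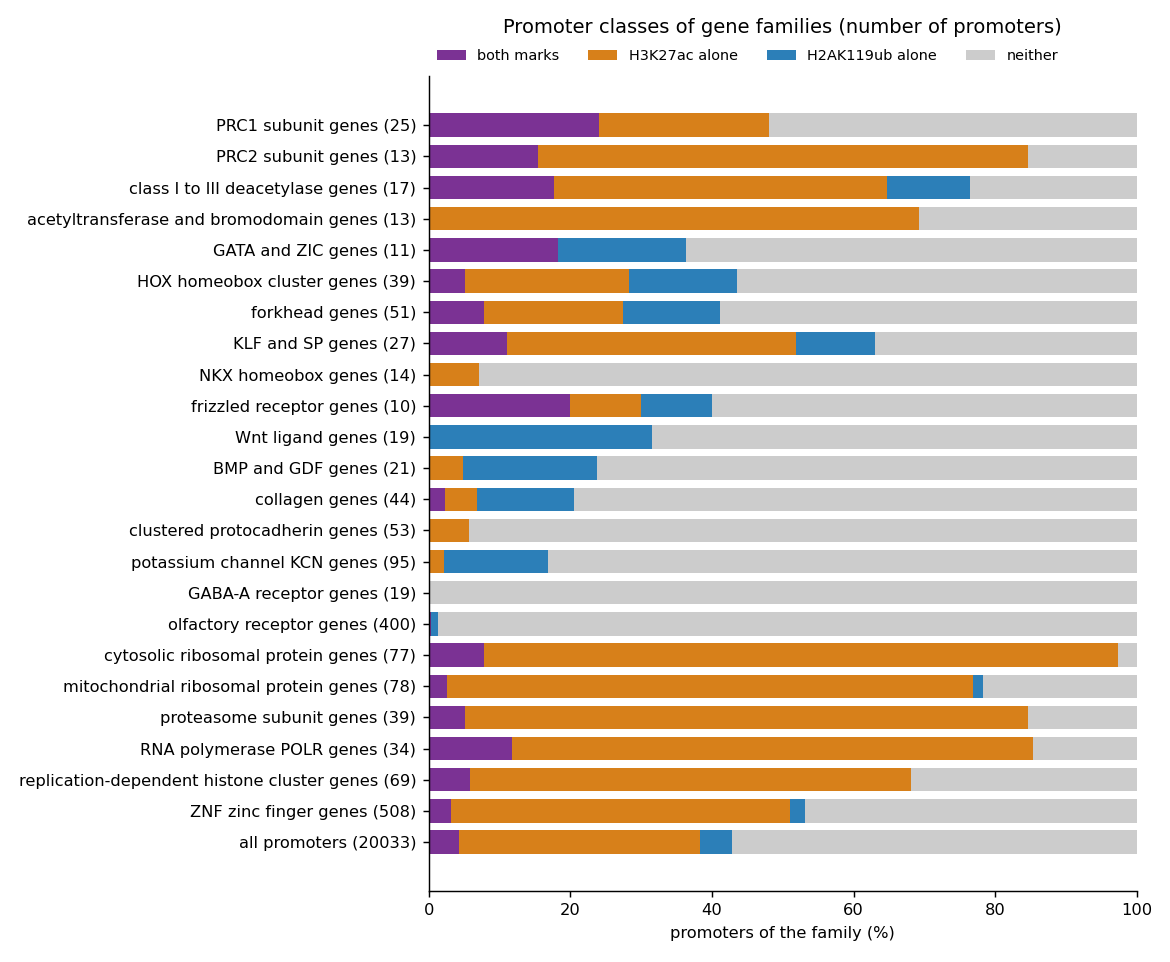
Promoters of each gene family (%) with both marks, H3K27ac alone, H2AK119ub alone or neither in both replicates of NCI-H1299 control cells, with the number of promoters in brackets and all 20033 promoters in the lowest bar. Cytosolic ribosomal protein genes are mostly in H3K27ac alone (69 of 77), the 6 marked Wnt ligand genes are all in H2AK119ub alone, and olfactory receptor genes are almost all in neither (395 of 400).

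Developmental transcription factor genes were spread over all 4 classes, with 56.4% of HOX, 58.8% of forkhead and 37.0% of KLF and SP genes in neither, against 57.2% of all promoters. The 39 HOX cluster genes, which pattern the body axis, had 2 with both marks (HOXB3 and HOXB4), 9 with H3K27ac alone, 6 with H2AK119ub alone and 22 with neither. Of these HOX genes 5.13% had both marks and 23.1% H3K27ac alone, against 4.26% and 34% of all promoters. The 15.4% with H2AK119ub alone compare with 4.54% of all promoters. Leaving out either H2AK119ub library gave 10 HOX genes in place of 6. The whole class then grew from 910 promoters to 2588 without replicate 1 and 1543 without replicate 2. It held 3 HOX genes among 414 promoters within 500 bp of the TSS, and 4 among 384 above a log2 fold of 2. HOXB2, HOXB7, HOXB9 and HOXC8 were among those with H3K27ac alone, and HOXA7, HOXB1, HOXB13, HOXC12, HOXD8 and HOXD11 had H2AK119ub alone, so that members of the HOXB cluster stood in all 3 marked classes. Of 51 forkhead genes 4 had both marks (FOXJ2, FOXC1, FOXA3 and FOXN2), 10 H3K27ac alone, 7 H2AK119ub alone and 30 neither. Of 27 KLF and SP genes, which encode zinc finger proteins that bind GC boxes, 3 had both marks (SP2, KLF2 and KLF3), 11 H3K27ac alone, 3 H2AK119ub alone and 10 neither. GATA6, a regulator of endoderm, had both marks with 12 and 13 reads of H3K27ac beside 28 and 14 reads of H2AK119ub, while GATA2 and GATA5 had H2AK119ub alone. PAX2, PAX4 and PAX5 had H2AK119ub alone, whereas PAX6 had H3K27ac alone and the other 5 PAX genes neither. The 14 NKX genes (1 with H3K27ac alone), 17 T-box genes (3 and 1) and 20 SOX genes (1 with both, 4 with H3K27ac alone) were mostly without either mark. SUZ12 peaks of NCI-H661 fell on 19 of the 39 HOX promoters, against 15.6% of all promoters. They also fell on 27 of the 51 forkhead, 10 of the 14 NKX and 8 of the 27 KLF and SP promoters.

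Most genes of signalling ligands and their receptors had neither mark, and the marked Wnt ligand genes had H2AK119ub without H3K27ac. Neither mark was called at 60% of frizzled, 68.4% of Wnt ligand and 76.2% of BMP and GDF genes, against 57.2% of all promoters. It was 86.4% of both the FGF and the ephrin and EPH receptor genes. Over all promoters 4.26% had both marks, 34% H3K27ac alone and 4.54% H2AK119ub alone. Of 19 Wnt ligand genes 6 had H2AK119ub alone (WNT1, WNT4, WNT6, WNT7B, WNT10A and WNT10B), or 31.6% against 4.54% of all promoters, 13 had neither, and none had H3K27ac in both replicates. WNT6 had islands with 97 and 172 reads of H2AK119ub and WNT10B with 40 and 55, and neither had an H3K27ac island in any library. The frizzled genes, which encode Wnt receptors, differed: FZD1 had both marks, with 24 and 39 reads of H3K27ac beside 36 and 73 reads of H2AK119ub, as did FZD2. The 21 BMP and GDF genes had 4 with H2AK119ub alone (BMP2, GDF1, GDF5 and GDF11), 1 with H3K27ac alone and 16 with neither. Of 22 ephrin and EPH receptor genes EFNA1 and EPHA2 had both marks and EFNA3 had H2AK119ub alone. Of 22 FGF genes 2 had H3K27ac alone, 1 had H2AK119ub alone and 19 had neither.

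Channel, receptor and matrix families differed in which mark they carried, beside shares over all promoters of 4.26% with both marks, 34% with H3K27ac alone, 4.54% with H2AK119ub alone and 57.2% with neither. Of 95 potassium channel genes 2 had H3K27ac alone, 14 (14.7%) H2AK119ub alone and 79 neither, and KCNK3, KCNJ5 and KCNK15 were among those of highest read density in the 14. Without replicate 1 of H2AK119ub the class held 32 of them among 2588 promoters, as the larger library alone then made the call. Within 500 bp of the TSS it held 8 potassium channel genes among 414 promoters, and above a log2 fold of 2 it held 5 among 384. The 26 glutamate receptor genes had 3 with H2AK119ub alone (GRIN1, GRIN2D and GRM4) and none with H3K27ac. Of 44 collagen genes 1 had both marks (COL27A1), 2 had H3K27ac alone, 6 had H2AK119ub alone, among them COL2A1 and COL11A2 of cartilage and the neighbours COL4A3 and COL4A4, and 35 had neither. Of 12 laminin genes 4 had H3K27ac alone, 1 H2AK119ub alone and 7 neither, and of 24 claudin genes 4 had H3K27ac alone and 20 neither. The 30 genes with integrin symbols, which include 4 that encode related or binding proteins, had 1 with both marks, 6 with H3K27ac alone, 4 with H2AK119ub alone and 19 with neither. Tissue-restricted families were nearly bare: neither mark was called at 395 of 400 olfactory receptor genes, 24 of 24 bitter taste receptor genes, 93 of 94 keratin-associated protein genes and 19 of 19 GABA-A receptor genes. The 53 clustered protocadherin genes had 3 with H3K27ac alone and 50 with neither.

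Most genes of ribosome, proteasome and RNA polymerase subunits had H3K27ac, against 38.3% of all promoters. Among those with H3K27ac, H2AK119ub was also called at 6 of 75 cytosolic ribosomal protein genes (8.0%), 2 of 33 proteasome genes (6.06%), 4 of 29 RNA polymerase genes (13.8%) and 2 of 15 reference housekeeping genes (13.3%), against 11.1% of all promoters with H3K27ac. The class shares over all promoters were 4.26% with both marks, 34% with H3K27ac alone, 4.54% with H2AK119ub alone and 57.2% with neither. Of 77 cytosolic ribosomal protein genes 69 had H3K27ac alone, 6 both marks (among them RPL7, RPL7A, RPL8, RPL12 and RPL28), none H2AK119ub alone and 2 neither. The 39 proteasome subunit genes had 2 with both marks (PSMB1 and PSMB8) and 31 with H3K27ac alone, and the 34 RNA polymerase subunit genes 4 and 25. Of 78 mitochondrial ribosomal protein genes 2 had both marks, 58 H3K27ac alone, 1 H2AK119ub alone and 17 neither, and of 47 NDUF genes of respiratory complex I 2 had both marks, 30 H3K27ac alone and 15 neither. Among 69 replication-dependent histone genes 43 had H3K27ac alone and 4, the neighbours H2AC11, H2BC11, H3C10 and H4C11 on chromosome 6, had both marks. The ZNF zinc finger genes include many repressors of repeats. Of 508 such genes 16 (3.15%) had both marks, 243 (47.8%) H3K27ac alone and 11 (2.165%) H2AK119ub alone. Reads of ribosomal protein and histone genes can be shared with near-identical copies and are uncertain to that extent. TBP, the TATA-binding protein gene, had both marks, with 394 and 249 reads of H3K27ac beside 21 and 14 reads of H2AK119ub, whereas ACTB and GAPDH had H3K27ac alone and no H2AK119ub island.

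The labelled cell type was checked against marker genes. Over all promoters 38.3% had H3K27ac in both replicates. The class shares were 4.26% with both marks, 34% with H3K27ac alone, 4.54% with H2AK119ub alone and 57.2% with neither. Of 19 lung lineage genes only AGER had H3K27ac in both replicates, and it had both marks, while 2 had H2AK119ub alone and 16 neither. NKX2-1, the lung lineage regulator that defines most lung adenocarcinomas, and the surfactant genes had neither mark. Of 20 epithelial genes KRT18, CLDN7 and ESRP2 had H3K27ac alone and MUC1 both marks. The other 16 had neither, and among them CDH1 and EPCAM had no island of either mark in any library. Of 20 mesenchymal genes VIM, an intermediate filament gene, ZEB1, TWIST1 and AXL had H3K27ac alone, and SNAI1, TWIST2 and FN1 had H2AK119ub alone. The other 13 had neither. H3K27ac was thus called in both replicates at 20% of the epithelial and 20% of the mesenchymal list, against 38.3% of all promoters. VIM had islands with 74 and 90 reads of H3K27ac and none of H2AK119ub. TWIST2 and FN1 also had H3K27ac in replicate 2, with 36 and 48 reads, so that their class turned on replicate 1. The 16 haematopoietic genes had neither mark. Of 15 neuroendocrine genes 2 had both marks (13.3%) and 13 had neither (86.7%). The lung markers were thus largely without H3K27ac, and the label rests on the line's name and not on these marks.

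Named genes of the study and of lung cancer fell in several classes. DPPA2 and DPPA4, silent in the parental line, had no island of H3K27ac, H2AK119ub, H3K4me1, H3K36me3 or H3K9me3 at their promoters. DLX1, a homeobox gene, had both marks, with 35 and 22 reads of H3K27ac beside 13 and 36 reads of H2AK119ub, and its neighbour DLX2 had H3K27ac alone with an H2AK119ub island of 23 reads in replicate 2. VGF, a neuropeptide precursor gene, had both marks, with 18 and 13 reads of H3K27ac beside 40 and 299 reads of H2AK119ub. UCHL1, a neuronal deubiquitinase gene, had both marks too. Of 29 driver and suppressor genes 13 (44.8%) had H3K27ac alone, against 34% of all promoters, and 14 (48.3%) had neither, against 57.2%. STK11 had both marks and 1 gene had H2AK119ub alone, each 3.45% of the list, against 4.26% and 4.54% of all promoters. STK11, a kinase gene lost in many lung cancers, had 32 and 38 reads of H3K27ac beside 18 and 50 reads of H2AK119ub. POU5F1 was the 1 of 22 pluripotency and germline genes with H2AK119ub alone (4.545%, against 4.54% of all promoters). The other 21 had neither (95.45%, against 57.2% of all promoters).

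The promoters with the highest read density in each class differed in how firmly the other mark was absent. In the class with both marks, ADIPOR2, an adiponectin receptor gene, had islands of 82.4 and 72.2 reads per kb of H3K27ac beside 33.3 and 33.3 reads per kb of H2AK119ub. NAMPT had 57.9 and 58.8 reads per kb of H3K27ac beside 33.3 and 33.0 of H2AK119ub, and CTBP1, a corepressor gene, 44.4 and 50.8 beside 34.5 and 34.6. MVD (mevalonate pathway), MAP1LC3B (autophagy), KPNA4 (nuclear import), GUF1 (a mitochondrial translation factor), MEPCE with its neighbour ZCWPW1, and GNL1 with PRR3 completed the 10. OR2T1 came first with 75 and 90.0 reads per kb of H3K27ac beside 70.0 and 70.0 of H2AK119ub. Its islands were 100 to 300 bp wide with 9 to 21 reads, its promoter had no CpG island, H3K9me3 and H3K4me1 islands lay there in both replicates, and neither mark was called there in the DOX libraries.

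In the class with H3K27ac alone, BRD2 had 116 and 110.0 reads per kb of H3K27ac. RELB (a subunit of NF-κB), HSPA9 (a mitochondrial chaperone), RBM39 (splicing), PCBP1 (RNA binding), NUP153 (nuclear pore) and HEXIM2 (an inhibitor of P-TEFb) followed, of which PCBP1 and HEXIM2 had an H2AK119ub island in replicate 2. Among promoters with H2AK119ub alone, MICA had 42.9 and 43.9 reads per kb of H2AK119ub, with an H3K27ac island of 38.2 reads per kb in replicate 2. EFNA3 had 35.4 and 42.7 reads per kb over 2600 and 7100 bp and CACNA1G, a calcium channel gene, 38.9 and 37.2, with no H3K27ac island at either. NBPF1, FAXC, C6orf47 and GPR162 also had H3K27ac in 1 library, and COL11A2 and FAXC rested on islands of 9 and 11 reads. AQP12A, NBPF1, ZDHHC11B, GTF2IRD2B and OR2T1 belong to families with near-identical copies, so their reads are uncertain.

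**Figure D5:**
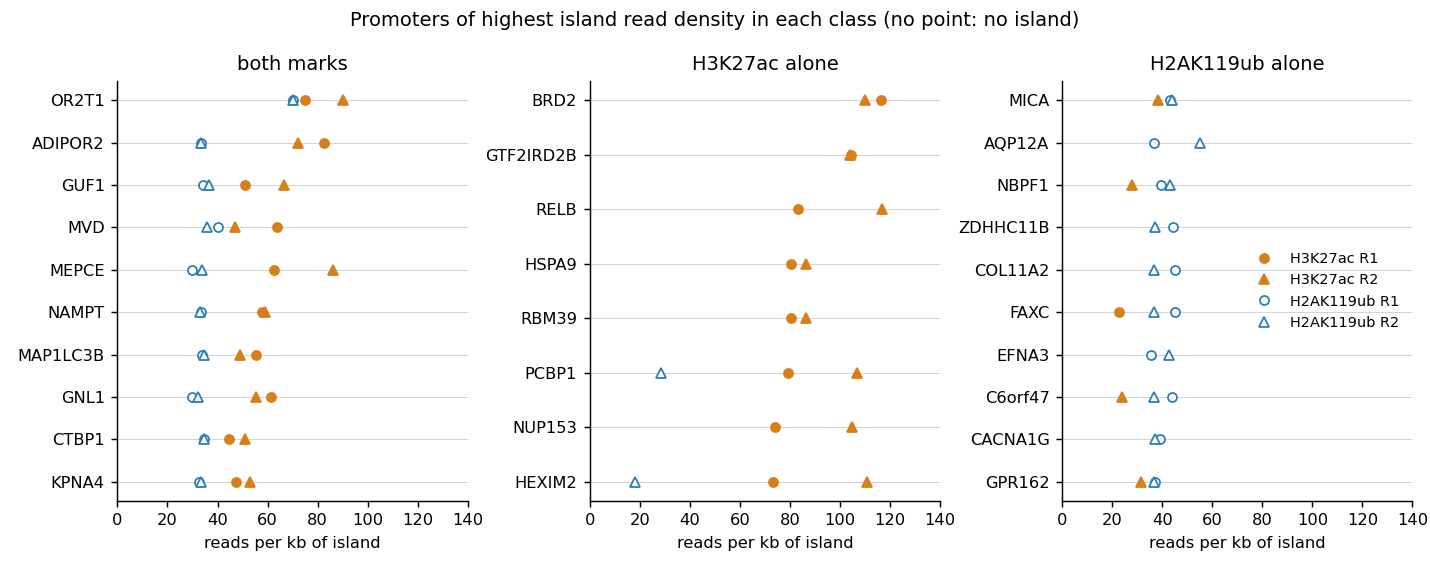
Read density of the islands at promoters of highest density in each class (10 with both marks, 8 with H3K27ac alone, 10 with H2AK119ub alone), in reads per kb of island, for H3K27ac (filled) and H2AK119ub (open) in replicate 1 (circles) and replicate 2 (triangles) of NCI-H1299 control cells, and no point where a library had no island. In the class with both marks H3K27ac lies above H2AK119ub at all 10 promoters, and 5 of the 10 with H2AK119ub alone show an H3K27ac point in 1 library.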

How the data were processed

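NCI-H1299 control cells were profiled by ChIP-seq for H3K27ac and H2AK119ub, with 2 libraries each, and mouse cells added as a spike-in were split off by the authors before deposit. Per the submitters' processing notes and the study's methods, the authors trimmed reads (Trim Galore 0.6.6) and aligned them to hg38 (BWA 0.7.13). They indexed the alignments (SAMtools 1.9) and marked duplicates (Picard 2.6.0). Broad islands were called with EPIC2 in each replicate against the 1 control input of these cells. The calls used 100 bp bins with 1 gap and a 147 bp fragment. The deposited island files give, per island, a p-value and FDR, ChIP and input read counts, a score and the log2 fold over input. The deposited narrow peak files of NCI-H661 give a score, a fold enrichment, −log10 p and −log10 q. Peaks with FDR below 0.05 and log2 fold above 1 were kept, and only the positions of these were used further. Depth of whole libraries is not in these files, and counts in islands were not normalized to the spike-in.

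Islands on 24 chromosomes with FDR below 0.05 and log2 fold above 1 were kept, after the limits in the methods, and the blacklist was not applied here. The islands were set on promoters of 20033 protein-coding genes of GENCODE 44 by at least 1 bp, and base overlaps, shares and 95% Wilson intervals, which cover counting error only, were computed in Python 3.11.15 with numpy 2.4.6 and pandas 2.3.3 and drawn with matplotlib 3.10.9. Differences between libraries were tested with exact permutation tests. The classing was tested on simulated data. Promoter classes, gene families, marker lists and the named genes were chosen with earlier results of these data known. The named genes were the 10 per class with the highest mean percentile of reads per kb in islands, with genes whose TSS lay within 3000 bp named together, 2 to 4 members of the families with the highest shares in a class, and members of the chromatin regulator, marker, driver and study lists. Some genes that the rule named are not reported here. Alternatives were the fold limit, promoter width, overlap, number of replicates, equal island numbers, and CpG-island or autosomal promoters. H3K4me3, H3K27me3 and CUT&RUN were not analysed here.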

Additional observations from a re-analysis of the deposited data

How the results depend on the processing

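The order of the classes in H3K4me1 (both marks, H3K27ac alone, H2AK119ub alone) held under every alternative run except promoters of 500 bp on each side, and the size of the class with both marks did not. With islands above a log2 fold of 2 that class held 131 promoters, with no fold limit 1557, within 500 bp of the TSS 347 and with an island in at least 1 replicate 4050. Leaving out single libraries gave 962 to 2669 promoters with both marks, 4995 to 8142 with H3K27ac alone, 738 to 2588 with H2AK119ub alone and 9781 to 10826 with neither, and the largest change came without replicate 1 of H2AK119ub (2669 with both marks). H3K27ac alone fell to 3562 promoters above a log2 fold of 2. H2AK119ub alone held 384 above a log2 fold of 2, 414 within 500 bp and 2262 with 1 replicate, and among CpG-island promoters 6432 had neither mark.

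The share of H2AK119ub promoters with H3K27ac was 25.4% above a log2 fold of 2, 58.0% with no fold limit, 64.2% with 1 replicate and 52.4% among CpG-island promoters, and 45.2% to 58.1% with single libraries left out. Its odds ratio was 2.28 with 1 replicate, 1.08 among CpG-island promoters and 1.4 to 2.02 with single libraries left out. The difference between the marks in the share of islands at promoters was 17.4 to 23.04 percentage points, and H2AK119ub bases shared with H3K27ac were 3.99% to 14.4%, with single libraries left out. With the replicate number as a pair (replicate block), the differences were 19.05 and 21.34 points, mean 20.2, exact p = 0.5, the smallest that 2 pairs allow; the methods describe complete batches, but no source says that a number marks a shared batch here.

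H3K4me1 in the class with both marks was 65.6% above a log2 fold of 2, 88.9% with no fold limit, 39.8% within 500 bp, 79.0% with at least 200 bp covered and 93.3% with 1 replicate. With H3K27ac alone it was 42.5%, 70.4%, 18.7%, 59.8% and 85.0% in that order of settings, 65.9% with an equal number of islands and 59.7% where the other mark had to be in no library. With H2AK119ub alone it was 35.4% above a log2 fold of 2, 50.4% with no fold limit, 31.6% within 500 bp, 49.6% with 1 replicate, 48.6% with equal islands, 35.0% with the other mark in no library and 51.5% among CpG-island promoters. Within 500 bp the class with H2AK119ub alone thus stood above H3K27ac alone. Single libraries left out gave 76.4% to 82.4% with both marks, 61.1% to 63.5% with H3K27ac alone and 39.5% to 41.6% with H2AK119ub alone.

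H3K36me3 at promoters with both marks was 7.63% above a log2 fold of 2, 19.2% with no fold limit, 2.59% within 500 bp, 11.6% with 200 bp covered, 28.8% with 1 replicate and 17.04% with equal islands. With H3K27ac alone these were 8.90%, 16.9%, 0.996%, 10.5%, 28.4% and 15.5%, then 13.9% with the other mark in no library and 14.9% on autosomes. With H2AK119ub alone it was 0.781% above a log2 fold of 2, 0.483% within 500 bp, 5.31% with 1 replicate and 0.954% with the other mark in no library. Single libraries left out gave 13.7% to 16.3%, 13.3% to 14.4% and 1.63% to 2.79% in the classes both marks, H3K27ac alone and H2AK119ub alone. The gene body measure, chosen after seeing the data, gave 37.5%, 43.97% and 5.06%.

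H3K9me3 rested on 38 promoters. With both marks it was 0.0% above a log2 fold of 2, 0.288% within 500 bp, 0.384% with 200 bp covered, 2.64% with 1 replicate and 0.363% among CpG-island promoters. With H3K27ac alone it was 0.218% with no fold limit, 0.0% within 500 bp, 2.32% with 1 replicate and 0.241% with the other mark in no library. With H2AK119ub alone it was 0.0% above a log2 fold of 2 and within 500 bp, 0.798% with no fold limit, 4.91% with 1 replicate, 0.342% with equal islands and 0.318% with the other mark in no library. Single libraries left out gave 0.187% to 0.416%, 0.158% to 0.220% and 0.130% to 0.271% in the classes both marks, H3K27ac alone and H2AK119ub alone.

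Both marks recurred in DOX at 12.98% of the class with both marks above a log2 fold of 2, 54.9% with no fold limit, 21.04% within 500 bp and 57.6% with 1 replicate (22.5% to 37.9% with single libraries left out), and in NCI-H661 at 15.3%, 29.7% within 500 bp and 52.4% with 1 replicate (23.8% to 36.7%). CpG islands lay in 99.2% of that class above a log2 fold of 2 and 98.6% within 500 bp (95.95% to 97.6%), and in 71.1% of H2AK119ub alone with 1 replicate and 76.95% with the other mark in no library (77.8% to 81.4%), and in 100% of both by construction among CpG-island promoters. Requiring that the islands of both replicates share bases, chosen after seeing the data, gave 678 promoters with both marks, and in H2AK119ub alone 49.9% H3K4me1, 2.80% H3K36me3, 0.140% H3K9me3 and 84.3% CpG islands, with 0.590% H3K9me3 where both marks lay. The causes of these changes were not tested. Whole library totals were not used here, so what depth limits was not assessed.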
